A study of Mus musculus with 6 samples.

Results

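The histone cluster genes are the mouse genes whose symbols begin with Hist1h, Hist2h, Hist3h or Hist4h, and they were examined here in single-nucleus RNA-seq of intestinal organoids. Members were found by mapping the Ensembl identifiers of the count matrix to GENCODE M21 symbols and keeping every such symbol with at least 1 UMI (a molecule counted once through its barcode). This gave 65 members among the 31319 genes of the matrix. GENCODE M21 lists 70 such symbols, and the other 5 were not analysed here. The members comprised 6 H1, 18 H2A, 17 H2B, 11 H3 and 13 H4 genes. Of these, 62 are annotated as protein-coding and the other 3, Hist3h2bb-ps, Hist1h2al and Hist1h2aj, as pseudogenes.

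The organoids were grown from jejunal crypts of C57BL/6 mice aged 8-12 weeks. They were cultured either in QCM, medium conditioned by quiescent mouse embryonic fibroblasts that had been deprived of serum, or in SCM, medium conditioned by fibroblasts made senescent by X-rays or doxorubicin. There were 3 samples per medium, so that n = 3 per medium throughout, and the comparison of media asks what the secretions of senescent cells change in the epithelium. The labels do not say whether the samples of a medium came from separate mice or cultures, so p-values measure the spread between these samples, which may be technical.

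Histones package DNA: H2A, H2B, H3 and H4 form the core around which DNA is wound, and H1 binds the linker DNA between cores. Most genes of the clusters are replication-dependent, which means that they are transcribed mainly while DNA is copied in S phase. Their mRNAs usually end in a conserved stem-loop rather than in a poly(A) tail, and the stem-loop is bound by the protein Slbp. The intestinal crypt divides rapidly, so histone synthesis is a marker of its cycling cells. The libraries were made with a kit that primes on poly(A) and reads 3′ ends, so that the counts describe the histone RNA this priming captured, not all of it.

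The annotated transcripts were searched for the stem-loop, because it is the sequence that sets these genes apart from other mRNAs. The pattern was GGNNNTTTNNANNNCC on the sense strand with 6 complementary pairs between its 6 outer bases on each side. It was present in transcripts of 42 of the 65 members. Among all 21901 protein-coding genes with a transcript in GENCODE M21, 69 (0.315%) held it. The 42 members used 6 versions, shown here with 5 flanking bases and the stem-loop in capitals, 1 example each.
Hist1h2ac: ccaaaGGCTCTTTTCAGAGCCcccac
Hist4h4: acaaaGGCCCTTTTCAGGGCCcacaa
Hist1h3c: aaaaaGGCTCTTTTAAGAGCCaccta
Hist2h4: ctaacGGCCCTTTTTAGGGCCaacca
Hist1h4j: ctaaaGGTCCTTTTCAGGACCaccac
Hist2h2ac: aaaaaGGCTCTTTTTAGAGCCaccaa
The version of Hist1h2ac was shared by 24 members of the H1, H2A, H2B and H3 classes, that of Hist4h4 by 7 H4 genes and that of Hist1h3c by 6 members. The versions of Hist2h4 and Hist1h4j were found in 2 H4 genes each, and that of Hist2h2ac in 1 member. In the remaining 23 members, among them the much-counted Hist1h1b and Hist1h2bc, the pattern was not in the annotated transcript, which says only that these letters are not in that sequence. For 21 members an annotated transcript ran more than 100 bases past the stem-loop, and these 21 held 51.0% of all histone UMIs.

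Promoters were also compared, because many members stand head to head in pairs. RefSeq (GRCm38.p6) gave a promoter, from 250 bases before to 50 after the start, for 56 of the 65 members. CCAAT was present on either strand in 47 of these 56 (83.9%) against 37.9% of all 27025 promoters. It was in every H1, H2A, H2B and H3 promoter matched, but in 3 of 12 H4 promoters (25%). TATAAA was present in 33 (58.9%) against 14.2%. The octamer ATTTGCAT, known from H2B promoters, was found in 11 (19.6%) against 1.75%, in 6 of 15 H2A and 5 of 14 H2B promoters and in none of the H1, H3 or H4 promoters. AAACACA, a motif of H1 promoters, was found in 5 of 6 H1 promoters against 7.14% of all promoters. The 150 bases before the start are shown for the pair of most counted members, with these 4 motifs in capitals on either strand. They are also shown for the pair with the highest ratio in cluster 3, described later, among members with at least 100 UMIs.
Hist1h1e, chr13:23622559-23622708, minus strand: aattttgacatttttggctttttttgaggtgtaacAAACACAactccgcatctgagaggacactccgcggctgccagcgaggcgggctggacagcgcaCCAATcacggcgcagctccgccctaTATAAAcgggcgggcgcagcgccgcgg
Hist1h1b, chr13:21780626-21780775, minus strand: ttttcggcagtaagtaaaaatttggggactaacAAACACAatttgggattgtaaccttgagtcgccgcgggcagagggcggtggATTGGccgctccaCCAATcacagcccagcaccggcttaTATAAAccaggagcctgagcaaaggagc
Hist1h2ac, chr13:23683960-23684109, minus strand: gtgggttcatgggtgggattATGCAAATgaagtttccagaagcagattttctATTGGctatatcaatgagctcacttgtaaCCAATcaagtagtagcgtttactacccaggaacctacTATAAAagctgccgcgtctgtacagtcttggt
Hist1h2bh, chr13:23543445-23543594, minus strand: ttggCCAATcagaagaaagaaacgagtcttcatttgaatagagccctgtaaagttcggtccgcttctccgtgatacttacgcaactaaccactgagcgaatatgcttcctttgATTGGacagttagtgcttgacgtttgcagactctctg
Both H1 promoters hold the H1 motif, CCAAT and TATAAA in the same order. Hist1h2ac holds the octamer, CCAAT and TATAAA, whereas Hist1h2bh holds CCAAT alone.

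The 38154 nuclei were divided unevenly. QCM replicate 1 was the deepest library with 41035733 UMIs, and the shallowest, SCM replicate 1, had 4071926 UMIs from 430 nuclei. Of its barcodes, 175 (40.7%) were also present in QCM replicate 1, whereas the other 14 pairs of samples shared between 0 and 36. Whether these nuclei belong to either sample cannot be told apart, so for all nuclei and for cluster 3 the summed level of SCM replicate 1 and the median over members between media are also given without them. Other values that include SCM replicate 1 were not recomputed in that way here. Over the 6 samples, outside cluster 3 epithelial markers summed to a mean of 2806 CPM (counts scaled to 1e+06 UMIs of a sample), and markers of fibroblasts and immune cells were near 0 (2.61 and 5.09 CPM).

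The 65 members together held 137857 UMIs, and most of these came from a few genes. The 12 most counted members supplied 74.8% of the histone UMIs and the other 53 supplied 25.2%. By class, H1 genes supplied 40.9%, H4 17.4%, H2B 16.7%, H2A 15.5% and H3 9.46%. The most counted member was the linker histone gene Hist1h1e (ENSMUSG00000051627, chromosome 13, 23620629 to 23622558, minus strand, mm10 coordinates as in GRCm38) with 23836 UMIs. It was followed by Hist1h1b (ENSMUSG00000058773, chromosome 13, 21779883 to 21780625, minus strand), another linker histone gene, with 19531, and by the H4 gene Hist1h4d (ENSMUSG00000061482, chromosome 13, 23581598 to 23582735, plus strand) with 14653. At the other end, the testis-type linker histone gene Hist1h1t had 4 UMIs in all. On chromosome 13 lie 53 members, which held 93.0% of the histone UMIs, 8 lie on chromosome 3, 3 on chromosome 11 and Hist4h4 alone on chromosome 6.

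Per kilobase of annotated exon the order of the leading members changed. Averaged over the 6 samples, Hist1h1b stood first at 158 CPM per kb, ahead of Hist1h1e at 80.5, Hist1h4d at 78.9 and the H2A gene Hist1h2ap at 67.4 CPM per kb. Hist1h1d, seventh by UMIs, fell to 4.21 CPM per kb because its annotated exons span 7425 bases. With 3′ counting, UMIs do not scale fully with length, so levels per kb and levels per gene are both given as descriptions.

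Many members are near copies of each other. In 31 of the 65, at least 50% of the 50-base windows of the transcript also occurred in a transcript of another gene, and these 31 held 18.3% of the histone UMIs. Hist1h2ap shared 93.1% of its windows, most of them with Hist1h2ao, while Hist1h1b shared none. Of the members, 6 overlap another gene on the same strand, among them Hist1h1e and Hist1h2be, which overlap each other. Counts of such members could have been divided between copies or lost by the counting, and their single values are uncertain.

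The division of H2A UMIs among the H2A copies differed between the replicate 1 samples and the others. Hist1h2ap took 5.03% of the H2A UMIs in QCM replicate 1 and 6.32% in SCM replicate 1, against between 23.7% and 36.1% in the other 4 samples. Hist1h2ab, in contrast, took 15.99% and 16.38% in the replicate 1 samples against between 5.202% and 6.452% in the others, and Hist1h2an 8.53% and 11.6% against between 1.82% and 3.91%. In other H2A members the replicate 1 samples lay on opposite sides of the rest. Hist2h2ac took 28.1% in QCM replicate 1 and 7.76% in SCM replicate 1, against 16.9% to 21.0% in the others. Hist1h2ae took 11.7% and 28.6%, against 16.2% to 18.8%. The summed H2A level nevertheless spanned only 137 to 171 CPM over all 6 samples. Of 59 members with at least 100 UMIs, 7 were higher and 5 lower in both replicate 1 samples than in all other samples. The background was 7.53% higher and 13.7% lower among all 17352 genes with that many UMIs. The part of shared sequence in this division was not tested.

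**Figure D1:**
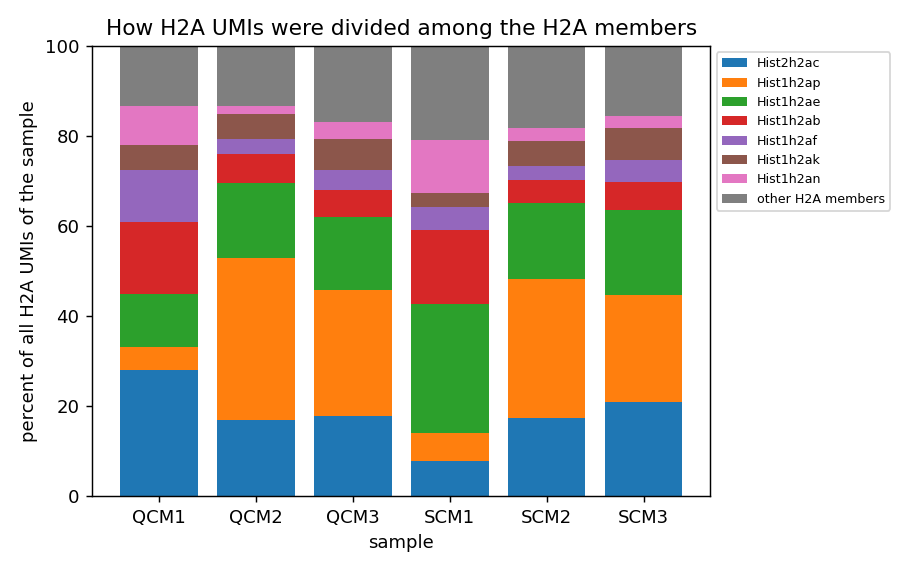
Percent of all H2A UMIs of a sample assigned to each of 7 H2A members and to the other H2A members together, for the 6 samples. In both replicate 1 samples Hist1h2ap takes 5.03% and 6.32%, against between 23.7% and 36.1% in the other samples.

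Across the 15 deposited clusters (numbered 0 to 14 without names), the summed histone level was highest in cluster 3. Each sample with at least 10 nuclei of a cluster counted equally. Cluster 3 averaged 1878 CPM ± 192 (SD, n = 6 samples), with 1604, 1788 and 1771 CPM in QCM replicates 1 to 3 and 1941, 2116 and 2047 CPM in SCM replicates 1 to 3. All 6 values lay above every sample of every other cluster. The next clusters were 1 at 1169 CPM ± 267 (n = 6), 13 at 1067 ± 306 (n = 4), 4 at 1046 ± 187 (n = 6) and 12 at 970 ± 231 (n = 5), which did not differ beyond their spread. The lowest levels were 728 CPM ± 166 in cluster 8, 699 ± 117 in cluster 9 and 552 ± 52.7 in cluster 14. Because these clusters were made from the same expression values, a difference between them is a description and carries no test. Cluster 3 held 2339 nuclei with a median of 2249 UMIs, close to that of cluster 0 (2111), whereas the 92 nuclei of cluster 14 had a median of 39432.5.

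**Figure D2:**
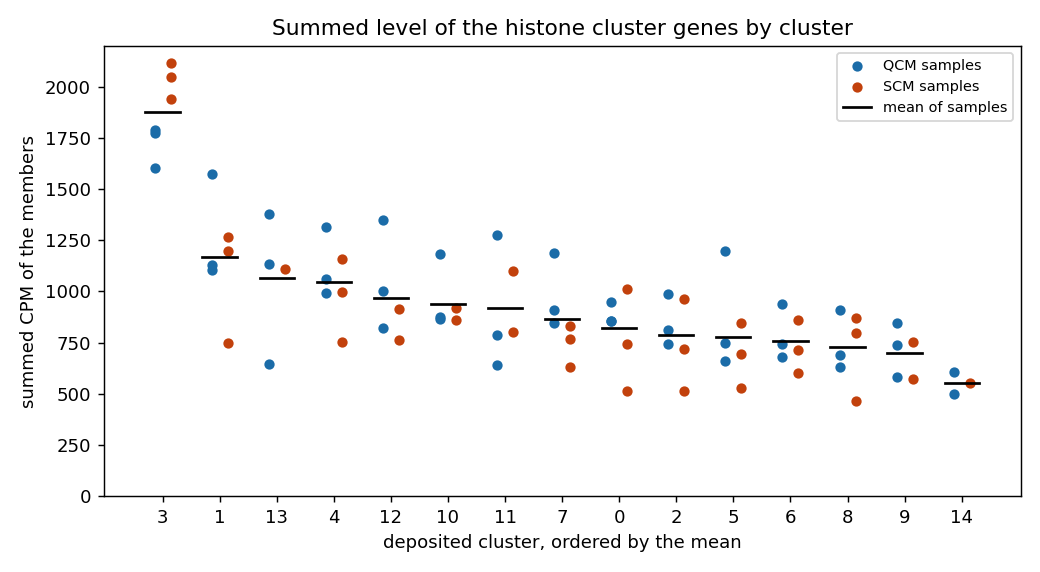
Summed CPM of the 65 members in each deposited cluster, with clusters ordered by the mean of their samples. Each point is a sample with at least 10 nuclei, coloured by medium, and black lines are means. Cluster 3 lies at 1604 to 2116 CPM and all other clusters lie below it.

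Cluster 3 stood out more in the less counted members than in the most counted ones. For each member the mean CPM in cluster 3 was divided by the mean CPM in the other nuclei, each over the 6 samples. Over the 12 most counted members this ratio had a median of 1.72 and a range of 1.30 to 2.01. For members of UMI rank 13 to 30 the median was 3.49, and for rank 31 to 65 it was 4.28. Summed, the 12 most counted members went from 651 CPM outside cluster 3 to 1018 inside it, a ratio of 1.56, and the other 53 from 224 to 860 CPM, a ratio of 3.83. Among the 59 members with at least 100 UMIs, 46 were higher in cluster 3 than outside it in 6 of 6 samples, 9 in 5 of 6 and 4 in fewer. The share of all genes higher in 6 of 6 samples was not computed. Over all 17352 genes with at least 100 UMIs the median ratio was 0.960.

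**Figure D3:**
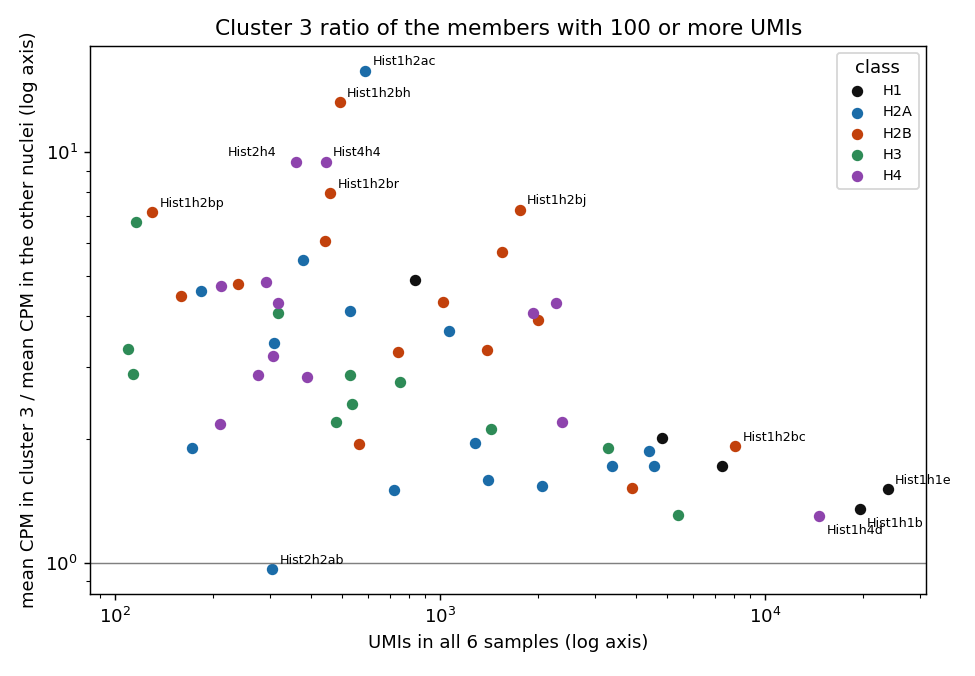
Ratio of the mean CPM in cluster 3 to the mean CPM in the other nuclei (log axis) against the UMIs of a member in all 6 samples (log axis), for 59 members coloured by class. The most counted members sit between 1.30 and 2.01, and the highest ratios, up to 15.8, belong to members with under 1000 UMIs.

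The highest ratio among members with at least 100 UMIs was that of the H2A gene Hist1h2ac (ENSMUSG00000069270, chromosome 13, 23681467 to 23683948, minus strand). In cluster 3 its levels were 9.74, 48.1 and 50.3 CPM in QCM replicates 1 to 3 and 34.5, 45.8 and 47.9 CPM in SCM replicates 1 to 3. Outside cluster 3 they were 1.86, 1.64 and 3.48 CPM in QCM and 2.60, 2.99 and 2.41 CPM in SCM. The ratio of the means was 15.8, and cluster 3 was higher in every sample, least so in QCM replicate 1. Hist1h2ac overlaps Gm24991 on the same strand, so its count is uncertain to that extent. The H2B gene Hist1h2bh (ENSMUSG00000114456, chromosome 13, 23541714 to 23543392, minus strand) followed with a ratio of 13.2. Its cluster 3 levels were 8.41, 26.2 and 35.1 CPM in QCM and 21.6, 34.1 and 42.0 CPM in SCM, against no more than 3.11 CPM outside cluster 3 in any sample. Again QCM replicate 1 was the lowest sample.

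The H4 genes Hist2h4 and Hist4h4, which lie apart on chromosomes 3 and 6, had ratios of 9.49 and 9.48. Hist4h4 (ENSMUSG00000096010, chromosome 6, 136801553 to 136804415, minus strand) measured 12.84, 27.96 and 19.97 CPM in cluster 3 of the QCM samples and 30.2, 24.4 and 17.8 CPM in the SCM samples. Outside cluster 3 it measured between 1.25 and 3.12 CPM, so no outside value reached any value of cluster 3. In all, 11 of the 59 members (18.6%) reached a ratio of at least 5, against 16 of 17352 genes with at least 100 UMIs (0.0922%), and 30 (50.8%) reached at least 3 against 0.34%. The 11 comprised 6 H2B, 2 H2A, 2 H4 and 1 H3 genes and no H1 gene. The linker histone gene nearest to them was Hist1h1a at 4.88.

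The classes therefore differed in how far cluster 3 stood out. Summed levels went from 146 to 478 CPM for H2B (ratio 3.28), from 151 to 354 CPM for H4 (2.35), from 146 to 332 CPM for H2A (2.28), from 85.4 to 166 CPM for H3 (1.95) and from 348 to 548 CPM for H1 (1.58). The leading H1 and H4 genes held these sums down. By the median ratio of single members the order of H2A and H3 was the other way. These medians were 4.46 for H2B, 4.06 for H4, 2.75 for H3, 1.93 for H2A and 1.86 for H1. Hist1h1e had 221, 343 and 151 CPM in cluster 3 of the QCM samples and 121, 285 and 249 CPM in the SCM samples, with 187, 213, 112, 64.3, 153 and 177 CPM outside it in the same order. Its ratio was 1.51, while its level varied more between samples than between cluster 3 and the rest. Hist1h4d had the lowest ratio of the 12 most counted members, at 1.30. The H2A gene Hist2h2ab showed no excess, with 2.13 CPM in cluster 3 and 2.22 CPM outside it (ratio 0.963), and its values overlapped.

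**Figure D4:**
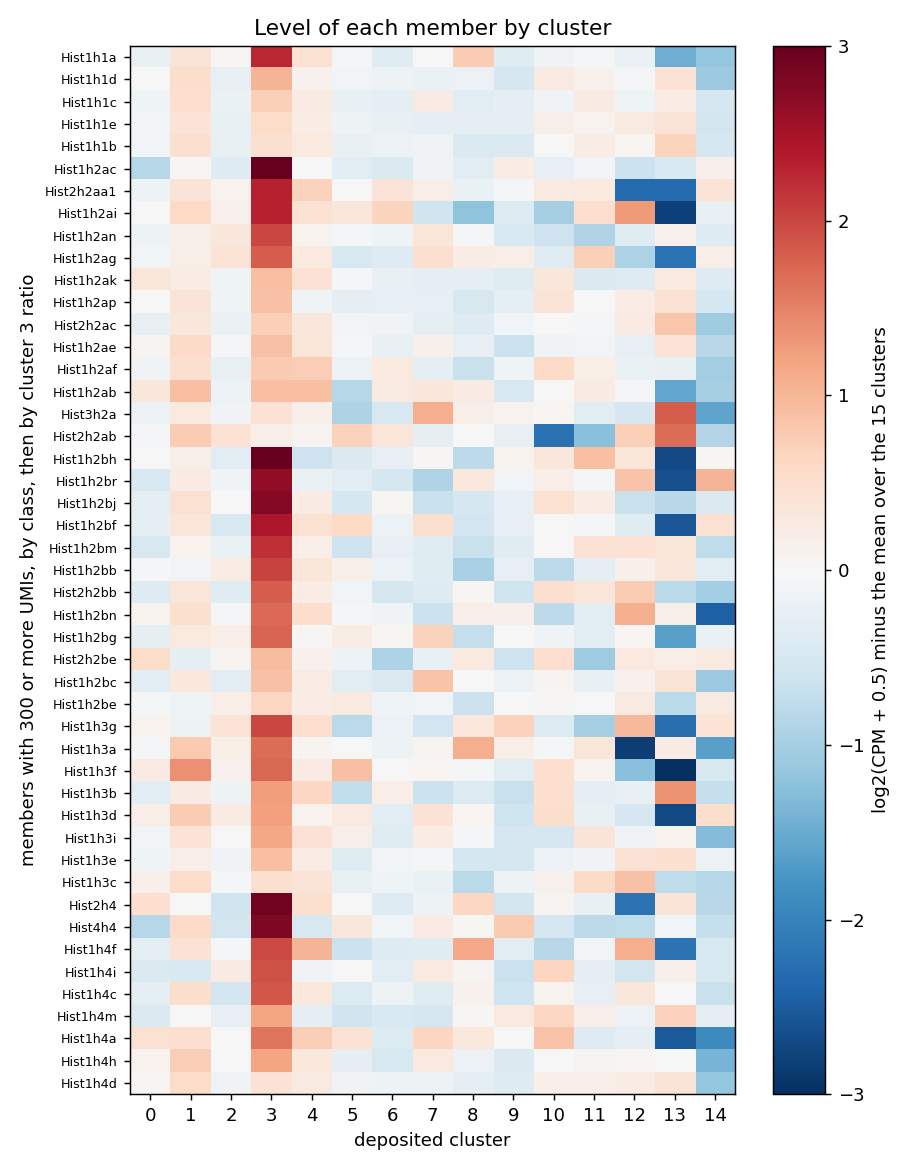
Levels of 47 members with at least 300 UMIs over the 15 clusters, as log2(CPM + 0.5) minus the mean of the member over the clusters, ordered by class and then by cluster 3 ratio. Colours end at 3 in either direction. The column of cluster 3 is the highest for most members, and the most counted members Hist1h1e, Hist1h1b and Hist1h4d vary little over the clusters.

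Some neighbouring members differed widely in this ratio and others were close. Starts of 13 pairs of members lay head to head within 1000 bases. Hist1h2ac and Hist1h2bc start 251 bases apart, and their ratios were 15.8 and 1.92. Hist1h2bh and the H3 gene Hist1h3f, 660 bases apart, had 13.2 and 2.75. Hist1h2ag and Hist1h2bj, 270 bases apart, had 3.42 and 7.25, and Hist1h2ap and Hist1h2br, 236 bases apart, had 1.87 and 7.94. In contrast, Hist1h2ai and Hist1h2bl, 279 bases apart, had 4.11 and 4.46. Hist2h2ac and Hist2h2be, 239 bases apart, had 1.72 and 1.94. In 2 pairs both members hold an octamer, Hist1h2ah and Hist1h2bk with ratios of 4.58 and 4.78, and Hist1h2ae and Hist1h2bg with 1.72 and 3.27. Over all 56 promoters the median ratio was 3.89 with the octamer and 3.32 without it. Within both classes that hold it the order was the other way. In H2B promoters the median ratio was 4.31 with it and 6.09 without it, and in H2A promoters 1.72 with it and 3.42 without it.

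The difference was also seen nucleus by nucleus at 1 depth. Each nucleus was thinned to 1000 UMIs, which left out 168 nuclei of cluster 3 and 3011 others. A UMI of any member was then found in 78.3% ± 4.26 (SD, n = 6 samples) of cluster 3 nuclei and in 58.4% ± 8.11 of the other nuclei. The ranges touched, since the other nuclei of QCM replicate 1 reached 72.6% and cluster 3 of SCM replicate 1 had 72.2%, but cluster 3 was the higher within each of the 6 samples. Cluster 1, the next highest in summed level, had 62.6% ± 13.4 and exceeded cluster 3 in QCM replicate 1 (79.7% against 76.1%). Without thinning the shares of cluster 3 and the other nuclei were 95.2% and 84.7%. For the 53 less counted members the thinned shares were 54.7% ± 8.77 in cluster 3 and 20.7% ± 4.04 outside it, without overlap between samples (lowest 41.8%, highest 24.2%). For the 12 most counted members they were 58.9% ± 3.76 and 48.3% ± 10.7, with overlap. In cluster 8, 6 of 8 enterocyte markers were at least 2-fold higher than elsewhere. Its sums of the S phase and G2/M genes described below were the lowest of all clusters, at 1294 and 1037 CPM. Whether it holds cycling nuclei was not tested. The thinned shares in cluster 8 were 16.1% ± 2.15 for the 53 members and 42.8% ± 7.64 for the 12. Reads at or below these shares cannot be told apart from free RNA in the droplets.

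Summed over each list, the analysed genes that work with histones or in the cell cycle had lower ratios in cluster 3 than the members. Of 44 listed genes of S phase and DNA replication, 37 were analysed, and their summed level was 2128 CPM in cluster 3 and 1925 CPM outside it (ratio 1.11), with gene ratios from 0.689 to 1.58. The most abundant of them in cluster 3 was the DNA polymerase alpha gene Pola1 at 300.1 against 269.5 CPM, and the highest ratio was that of the cyclin gene Ccne1. The 24 G2/M genes summed to 2266 and 1735 CPM (ratio 1.31), and each of the 24 had a ratio between 1.09 and 1.51, with the kinesin genes Cenpe at 178.4 against 131.3 CPM and Kif11 at 178.2 against 131.3 CPM the most abundant. Both the S phase and the G2/M sums were nevertheless highest in cluster 3 of all clusters. Each was also higher in cluster 3 than outside it in all 6 samples. The S phase sum of cluster 0, the largest cluster, was close to that of cluster 3 at 2087 CPM. The G2/M sum of cluster 0 was 2001 CPM. The 21 analysed genes of histone mRNA processing had a ratio of 0.998, with the cleavage factor gene Cstf3 at 247.4 against 248.6 CPM, and the 16 histone chaperone genes one of 1.02, with Atrx at 372.3 against 393.6 CPM. The genes listed as replication-independent histone genes summed to 2058 CPM in cluster 3 and 1840 CPM outside it (ratio 1.12) and were highest in cluster 1 at 2418 CPM. Among them only H2afy2 reached a ratio of 2, with 3.39 at 1.38 CPM.

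Among the genes outside the list whose profile over the 15 clusters was most like the summed members were Gm23935, H2afx, H2afj, Lsm8, Lars2, Lsm12, Cmss1, Cdca3 and Gm15564. Their Pearson correlations of log2(CPM + 1) over the 15 clusters lay between 0.869 for Gm23935 and 0.813 for Gm15564, among 12290 genes compared. All 15 points share the same 6 libraries. H2afx and H2afj encode H2A variants outside the 4 symbol groups. Of these, Gm23935 alone had a large excess in cluster 3 (1673 against 367 CPM), and the next was Lars2 at a ratio of 1.86.

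Between the media, the summed histone level of all nuclei did not separate. It was 1224, 863 and 936 CPM in QCM replicates 1 to 3 and 701, 826 and 1044 CPM in SCM replicates 1 to 3. The means were 1008 ± 191 CPM and 857 ± 174 CPM (SD, n = 3 each), and the ranges overlapped. The highest QCM sample and the lowest SCM sample were both replicate 1, and with replicates 2 and 3 alone the SCM mean was the higher by 35.5 CPM. Without the shared barcodes SCM replicate 1 had 728 CPM. H1 genes varied most, with 506, 445 and 254 CPM in QCM and 152, 364 and 431 CPM in SCM. H2B genes gave 170, 122 and 207 CPM against 149, 131 and 210 CPM, with nearly the same range in both media.

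Gene by gene, the edgeR quasi-likelihood test on all nuclei called no member. It tested 60 members among 19046 genes and called 0% of all genes at an adjusted p under 0.05. At an unadjusted p under 0.05 it counted 0 members against 4.55% of all genes. DESeq2 called 20 genes (0.105%) and no member, with 1 member (1.67%) at an unadjusted p under 0.05 against 6.43% of all genes, and voom with limma called none. The log2 ratio of SCM to QCM had a median of -0.07 over the members and -0.01 over all genes, and 26 of the 60 were above 0. Its sign rested on single samples, since the median was 0.04 without QCM replicate 1, 0.10 without QCM replicate 3 and 0.01 without SCM replicate 2, and -0.30 without QCM replicate 2. Without the shared barcodes it was -0.05. Scaled by library size alone instead of TMM, the members' median was 0.09 with 38 above 0 and the median of all genes was 0.14, so the members stayed below all genes under both scalings. That order turned when QCM replicate 1, QCM replicate 3 or SCM replicate 2 was left out, where all genes had medians of -0.01, 0.01 and -0.03. It also turned without the low-count filter, at -0.03 for the members and -0.09 for all genes. No member had 3 SCM samples all above or all below the 3 QCM samples, against 4.99% and 2.09% of all genes.

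The most counted members were followed sample by sample in all nuclei. Among the linker histone genes, Hist1h1e had 189, 219 and 114 CPM in QCM replicates 1 to 3 and 67.5, 159 and 182 CPM in SCM replicates 1 to 3, with a log2 ratio of -0.51 ± 0.41 (SE; edgeR adjusted p = 0.929). Hist1h1c had 58.7, 50.7 and 45.5 CPM against 22.8, 61.2 and 53.9 CPM. Hist1h1d had 37.9, 36.9 and 26.9 CPM against 12.5, 33.9 and 39.5 CPM. In each of these linker histone genes SCM replicate 1 was the lowest sample, and the other 5 samples overlapped between media.

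Among the core histone genes, the H2B gene Hist1h2bc had 74.7, 41.2 and 63.9 CPM in QCM and 42.7, 35.5 and 68.8 CPM in SCM. Hist1h2be, the other H2B gene among the most counted, had 24.8, 24.5 and 37.1 CPM against 26.03, 25.6 and 33.5 CPM, the steadiest values of the group. Hist1h3e, an H3 gene, had 32.1, 17.1 and 22.7 CPM against 23.3, 17.99 and 23.1 CPM. All of these overlapped between media.

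The H2A genes were less even. Hist1h2ap had 8.63, 49.7 and 47.8 CPM in QCM and 10.8, 42.2 and 35.8 CPM in SCM, low in both replicate 1 samples. Hist1h2ae had 20.03, 22.9 and 27.7 CPM against 48.9, 23.1 and 28.4 CPM, with SCM replicate 1 alone far above the rest. Hist2h2ac had 48.3, 23.3 and 30.5 CPM against 13.3, 23.8 and 31.8 CPM, where the replicate 1 samples were the extremes in opposite directions.

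The lowest log2 ratios were those of Hist1h3c, Hist1h2af, Hist1h4d, Hist2h2ac and Hist1h1b, and they rested largely on QCM replicate 1. Hist1h3c, an H3 gene, had 66.2, 17.8 and 45.5 CPM in QCM and 21.6, 22.5 and 28.6 CPM in SCM. The SCM samples lay inside the range of the QCM samples, and the log2 ratio was -1.06 ± 0.49 (SE; edgeR adjusted p = 0.927). Hist1h4d had 192, 51.4 and 89.9 CPM in QCM and 64.6, 50.5 and 90.6 CPM in SCM. Only QCM replicate 1 stood apart, and the log2 ratio was -0.93 ± 0.53 (adjusted p = 0.927). Hist1h1b gave 213, 133 and 63.3 CPM against 44.9, 102 and 149 CPM, with a log2 ratio of -0.66 ± 0.57. Hist1h2af gave 20.03, 4.49 and 7.63 CPM against 8.84, 4.18 and 7.31 CPM. Without QCM replicate 1 the ratios of Hist1h1b and Hist1h2af turned to 0.01 and 0.09, and those of Hist1h3c and Hist1h4d moved to -0.43 and -0.08.

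The highest log2 ratios belonged to Hist1h2ad (0.62 ± 0.58), Hist1h4n (0.60 ± 0.44), Hist1h4j (0.54 ± 0.54), Hist1h2bp (0.50 ± 0.61) and Hist1h2bj (0.42 ± 0.28). The best counted of these was the H2B gene Hist1h2bj with 1759 UMIs, against 130 to 292 UMIs for the others. Hist1h2bj had 7.65, 10.9 and 15.6 CPM in QCM and 17.2, 13.8 and 19.1 CPM in SCM. Its ranges overlapped in the QCM replicate 3 and SCM replicate 2 samples, and its adjusted p was 0.929. Hist1h2ad had 1.07, 0.659 and 1.71 CPM against 3.68, 1.59 and 1.16 CPM, and Hist1h4j 1.49, 1.32 and 1.46 CPM against 4.67, 1.25 and 1.68 CPM. In both, SCM replicate 1 alone was high. Hist1h4n had 1.15, 1.48 and 2.76 CPM against 2.70, 4.04 and 2.20 CPM, and Hist1h2bp 0.536, 0.577 and 1.66 CPM against 2.46, 1.06 and 1.08 CPM, with overlap in both.

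Within cluster 3 the summed level from pooled UMIs was higher in SCM, while no member was called. The share of nuclei in cluster 3 was 6.62%, 5.31% and 5.79% in QCM and 4.88%, 6.05% and 6.97% in SCM. The log2 ratio of the shares was 0.02 ± 0.25 (SE; edgeR adjusted p = 0.981), and an exact two-sided permutation test gave p = 1, where 3 against 3 samples can give no p below 0.1. The summed histone level in cluster 3 was higher in all SCM samples than in any QCM sample, at 2035 ± 88.4 against 1721 ± 102 CPM (SD, n = 3 each), when UMIs were pooled over nuclei. With nuclei weighted equally the media overlapped, at 1627, 2096 and 2028 CPM in QCM and 1874, 2583 and 2220 CPM in SCM. Outside cluster 3 it was 785 ± 173 CPM in SCM and 966 ± 206 CPM in QCM, and the ranges overlapped. SCM replicate 1 had 21 nuclei in cluster 3, of which 11 remained without the shared barcodes, at 2067 CPM in cluster 3 and 611 CPM outside it.

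**Figure D5:**
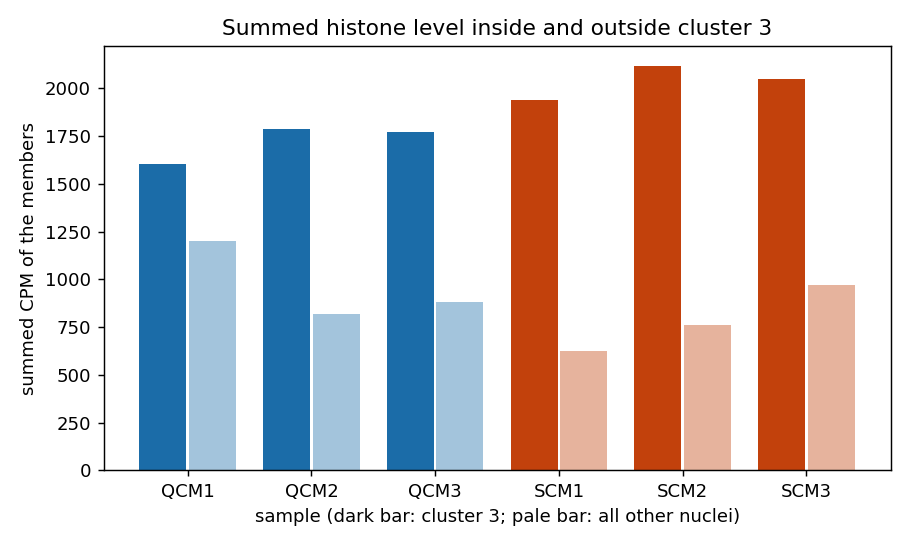
Summed CPM of the 65 members in cluster 3 (dark bars) and in all other nuclei (pale bars) of each sample. The 3 SCM samples reach 1941 to 2116 CPM in cluster 3 against 1604 to 1788 CPM in QCM, while the pale bars overlap between media.

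In cluster 3, edgeR tested 44 members among 10709 genes and called none of either (0%). At an unadjusted p under 0.05 there were 3 members (6.82%) against 7.71% of all genes. Leaving out single samples gave between 0 members (against 1.85% of genes), without SCM replicate 2, and 6 (13.3% against 9.0%), without QCM replicate 3. There were 4 with voom (9.09% against 5.17%), 5 with library size alone (11.4% against 7.37%) and 9 without the low-count filter (14.1% against 7.24%). DESeq2 called 3 genes (0.028%) and no member, with 1 member (2.27%) at an unadjusted p under 0.05 against 7.17% of genes, voom with limma called none, and the fit without a filter on low counts called 2.05% of genes and no member. The log2 ratios had a median of 0.22 over the members and -0.01 over all genes, with 31 of 44 above 0, and the members' median was 0.26 without the shared barcodes, 0.51 without QCM replicate 3 and 0.35 with library size alone, where that of all genes was 0.13. There were 8 members with all SCM samples above all QCM samples (18.2% against 7.43% of genes tested), and none had them all below (4.59%). The 8 were Hist1h1a, Hist1h2ae, Hist1h2ak, Hist1h2bj, Hist1h3a, Hist1h4h, Hist2h2be and Hist2h4.

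The 3 members at an unadjusted p under 0.05 were all higher in SCM. Hist1h4h, an H4 gene, had 17.3, 24.5 and 27.2 CPM in QCM and 77.6, 50.7 and 32.3 CPM in SCM within cluster 3, with a log2 ratio of 0.97 ± 0.34 (adjusted p = 0.638). Hist2h2be, an H2B gene, had 1.77, 3.50 and 7.19 CPM against 12.9, 8.78 and 11.3 CPM, from 50 UMIs in all, with a log2 ratio of 1.29 ± 0.51. Hist1h1a had 10.6, 23.6 and 12.8 CPM against 30.2, 36.1 and 24.8 CPM, with a log2 ratio of 0.85 ± 0.35. In all nuclei these members gave 0.23, -0.10 and 0.12.

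Whether the excess of cluster 3 itself differed between media was tested with an edgeR fit that held each sample as a block and was added after the values had been seen. It compared cluster 3 with the other nuclei of the same sample. The summed ratio was 1.33, 2.19 and 2.01 in QCM and 3.10, 2.79 and 2.11 in SCM from pooled UMIs. With nuclei weighted equally it was 1.19, 2.21 and 2.05 in QCM and 2.08, 2.92 and 2.06 in SCM, so that SCM replicates 1 and 3 lay inside the range of QCM. Of 55 members among 14063 genes tested, none was called (3 genes, 0.0213%, were). At an unadjusted p under 0.05 there were 17 members (30.9%) against 4.34% of all genes, and all 17 had the larger excess in SCM. The difference had a median of 0.52 on the log2 scale over the members and -0.01 over all genes, and 51 of 55 were above 0. The largest were those of Hist2h2be at 1.40 ± 0.51 and Hist2h4 at 1.36 ± 0.45 (SE; adjusted p = 1.00 each). With replicates 2 and 3 alone there was 1 such member of 61 (1.64% against 3.73% of genes), the median was 0.25 and 44 were above 0. Without QCM replicate 1 there were 3 (5.26% against 3.31%) and without SCM replicate 2 also 3 (5.36% against 4.06%), so that the count of 17 rested on these samples. Without SCM replicate 3 the linker histone gene Hist1h1d was called, among 23 of 14682 genes (0.157%).

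In the other clusters fitted, the median log2 ratio of the members was below 0, except in cluster 0 at 0.02. This rested partly on QCM replicate 1, without which the median was above 0 in clusters 5 (0.08), 6 (0.12), 8 (0.13), 9 (0.18) and 11 (0.19) as well and stayed below 0 in clusters 1 (-0.10), 2 (-0.02), 4 (-0.14), 7 (-0.36), 10 (-0.07) and 12 (-0.15). With replicates 2 and 3 alone it was above 0 in cluster 2 too (0.12). edgeR was fitted in 13 clusters and called no member in any of them, and no gene (0% in each). In cluster 1, the second highest cluster, 9 of 35 members were above 0 with a median log2 ratio of -0.46, and 1 member was at an unadjusted p under 0.05 (2.86% against 6.62%). In cluster 7, where 6 of 8 fetal markers were at least 2-fold higher than elsewhere, 3 of 18 were above 0 with a median of -0.66, and 5 were at an unadjusted p under 0.05 (27.8% against 11.9%). In the remaining clusters 1 member each passed that limit in clusters 4 (10.1% of genes), 6 (5.3%), 11 (4.19%) and 12 (4.64%), and none in clusters 0 (3.44%), 2 (4.09%), 5 (4.29%), 8 (3.16%), 9 (3.01%) and 10 (7.33%). The 5 of cluster 7 were Hist1h1c, Hist1h4i, Hist1h3c, Hist1h2bc and Hist1h1e. Without the filter on low counts, Hist1h3c was called lower in SCM in clusters 1 (0.962% of genes called), 4 (1.63%) and 7 (1.71%) and Hist1h4d in cluster 7. That fit called no member in clusters 0 (0.462%), 2 (1.79%), 5 (0.804%), 6 (1.06%), 8 (0.313%), 9 (0.332%), 10 (0.588%), 11 (0.359%) and 12 (0.12%).

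These calls can be read against the single samples. In cluster 7, Hist1h3c had 64.5, 14.5 and 39.5 CPM in QCM and 13.02, 10.87 and 18.36 CPM in SCM, the first from 2 UMIs in 17 nuclei, so that QCM replicate 2 lay within the SCM range. The log2 ratio without the filter was -1.64 ± 0.37 (edgeR adjusted p = 0.00169), and with the filter the adjusted p was 0.339. Hist1h4d in cluster 7 had 178, 39.1 and 71.0 CPM in QCM and 65.1, 33.5 and 68.7 CPM in SCM, and again QCM replicate 1 stood far above the rest.

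In the related gene lists edgeR with the low-count filter gave no call between media, and without that filter it called 1 gene, Snrpb of the histone mRNA processing list, in cluster 3 (2.05% of all genes called). Of the S phase genes 11 of 37 were above 0 in all nuclei (median log2 ratio -0.10), and of the G2/M genes 6 of 24 (-0.11), with 1 of the 37 and 3 of the 24 genes at an unadjusted p under 0.05, against 4.55% of all genes. Without QCM replicate 1 these medians were -0.002 and -0.03. The G2/M count was then 0 (1.54% of all genes), and without QCM replicate 2 it was 6 (11.8% of all genes). Of the histone mRNA processing genes 8 of 21 were above 0 and of the chaperone genes 5 of 16. None of the 10 tested genes listed as replication-independent histone genes was above 0, with a median of -0.80 and 1 gene at an unadjusted p under 0.05. That count was 3 with DESeq2 (6.43% of all genes) and 3 with the replicate block (6.19%). Without SCM replicate 3 it was 3 (6.22%), and without QCM replicate 2 it was 6 (11.8%). The median of these genes was -0.23 when QCM replicate 1 was left out, and with replicates 2 and 3 alone it was -0.28 with 1 gene above 0. Scaled by library size alone, 22 of the S phase, 13 of the G2/M, 12 of the processing and 9 of the chaperone genes were above 0. None of those listed as replication-independent was. In cluster 3 these 5 lists had medians between -0.41 and 0.02, while the median of the members was 0.22.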

How the data were processed

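Single-nucleus RNA-seq of 6 organoid samples was analysed. Per the submitters' processing notes, reads were handled with Cell Ranger 2.1.1 on mm10. The authors deposited UMI counts per gene and nucleus, after removing nuclei with outlying mitochondrial content, read totals or feature numbers, together with cluster numbers and, for each nucleus, the mitochondrial fraction of its UMIs, a value the authors computed before depositing the files. How reads matching several genes were counted, and the strand setting, are not given in the sources used here. Matrices of the whole series and log-transformed values were not used, and 0 columns of other samples were present. No doublet caller was run here.

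Members and lists were chosen with earlier results of these data known. UMIs were summed per sample, and per cluster where a sample had at least 10 nuclei. SCM and QCM were compared with edgeR 4.0.16 (quasi-likelihood, TMM, filterByExpr with a minimum count of 10, Benjamini-Hochberg adjustment over all genes, threshold 0.05) in R 4.3.3, after a test on simulated data. DESeq2 1.42.0 and limma 3.58.1 (voom), no filter, library size alone, a replicate block, leaving out each sample and clusters weighted equally were alternatives. The test of the cluster 3 excess between media, replicates 2 and 3 alone for that test and the summed levels, leaving out single samples for the summed levels of clusters 3 and 7, and leaving out shared barcodes were chosen after seeing the data. Nuclei were thinned to 1000 UMIs with a fixed seed in Python 3.11.15. Named by rule were the 12 most counted members, the 5 highest and 5 lowest log2 ratios between media, members called in any fit, members marking a structural exception, the most abundant genes of each list and the 10 genes most like the members over the clusters, of which 1 is not reported here. Members named for their cluster 3 ratio, head-to-head position, overlap, unadjusted p or share of H2A UMIs, and Ccne1, H2afy2 and Hist1h1d without SCM replicate 3, were chosen after their values were seen. Of the S phase list 7 genes were not analysed here. Transcripts came from GENCODE M21 and promoters from RefSeq (GRCm38.p6), matched by synonym. Values after ± are SDs between samples or SEs of edgeR fits, and statements on depth cover counting error only.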

Additional observations from a re-analysis of the deposited data

Results flagged for a closer look

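From UMIs pooled over nuclei, the summed histone level separated the media in opposite directions in 2 clusters. These were 2 of the 9 clusters with at least 10 nuclei in every sample, and in all other clusters the media overlapped. In an exact permutation test 3 against 3 samples can give no p below 0.1, so a full separation in 1 cluster carries little weight. In cluster 3 all SCM samples lay above all QCM samples, and the SCM mean was higher by 314 CPM (2035 against 1721 CPM), or by 255 to 360.5 CPM with single samples left out. In cluster 7 all SCM samples, at 833, 632 and 768 CPM, lay below all QCM samples, at 1187, 847 and 910 CPM. The SCM mean there differed by -237 CPM (745 ± 102 against 982 ± 181 CPM, SD, n = 3 each), and by -134 CPM without QCM replicate 1. With nuclei weighted equally the media overlapped in both clusters, with 1627, 2096 and 2028 CPM in QCM and 1874, 2583 and 2220 CPM in SCM in cluster 3, and 1390, 1036 and 1011 CPM against 996, 788 and 1018 CPM in cluster 7. SCM replicate 1 had 17 nuclei in cluster 7. The difference between the clusters was not tested.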

How the results depend on the processing

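Of 278 alternatives to 25 results, 262 were classed as the same, 3 as weaker, 2 as stronger, 8 as reversed and 3 as moved. For medians, summed levels, the cluster 3 ratio and thinned shares, the same meant within the SD between replicates, whatever the sign. For single members and the cluster 3 share it meant the same sign and side of the threshold. For counts of genes called it meant a count close to the main one. Without the low-count filter 4 member calls appeared within clusters where the filtered fit gave 0, all lower in SCM. With equal weight for the 9 clusters that had at least 10 nuclei in every sample, the median log2 ratio of the members was 0.18. That value came from mean CPM plus 1 without edgeR or TMM. It therefore differs in more than the weighting from the edgeR median of -0.07 over all nuclei. Leaving out single samples moved that edgeR median between -0.30 and 0.10, and that of cluster 3 between 0.21 and 0.51. The difference in the summed level, -151 CPM, was 35.5 CPM with replicates 2 and 3 alone and ran from -244 to -42.7 CPM when single samples were left out. Without thinning the gap in the share of nuclei with a histone UMI was 10.4 percentage points against 19.9. Leaving out single samples moved the log2 ratio of the cluster 3 share between -0.10 and 0.14, its sign turning without QCM replicate 2 (-0.05) and without SCM replicate 3. For the cluster 3 excess between media, leaving out single samples gave 0 to 1 members called (0.00691% to 0.157% of genes) and 3 to 24 at an unadjusted p under 0.05 (3.31% to 6.46% of genes), and replicates 2 and 3 alone gave 1 (3.73% of genes). Among single members in all nuclei, leaving out samples gave -1.36 to 0.091 for Hist1h2af, -1.15 to 0.015 for Hist1h1b and -0.10 to 0.89 for Hist1h4j, and replicates 2 and 3 alone gave 0.34 for Hist1h1b, 0.0066 for Hist2h2ac and -0.11 for Hist1h2bp. The cause was not tested. For each gene, the mean of its medium was subtracted from the log2(CPM + 1) of each sample. These deviations, not the levels themselves, were correlated between QCM and SCM samples over 19046 genes. Same-numbered samples gave 0.304, 0.511 and -0.068, and differently numbered samples gave between -0.465 and 0.0901. The deviations within a medium cancel out, which favours negative values among these correlations. The main fit held no block for the replicate number. With a replicate block edgeR called 0 members in all nuclei and 0 in cluster 3, with medians of -0.05 and 0.19. Depth limits members under 100 UMIs and SCM replicate 1, with 21 nuclei in cluster 3.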
